A study of Mus musculus with 6 samples.

Results

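The 562 widest peaks of a chromatin accessibility map of mouse bone marrow, those spanning 800 bp or more, are described here. They were chosen by their measured width alone and make up 0.512% of the 109859 peaks in the deposited table. Of the 562 wide peaks, 484 had their middle within 1000 bp of the listed nearest transcription start site (wide promoter peaks), and 78 lay farther away (other wide peaks). The assay was ATAC-seq: the transposase Tn5 cuts and tags DNA that is not packed in nucleosomes. The cells were lineage-negative (Lin-) bone marrow cells, the fraction left after cells bearing markers of mature blood lineages are removed, labelled as hematopoietic stem and progenitor cells. They came from 3 Mel18 knockout mice, in which Mel18 was deleted conditionally in the blood system, and from 3 wildtype mice. The sources used here do not give the Cre driver, the deleted exons or the age of the mice, and they name no treatment in either genotype.

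Mel18, encoded by Pcgf2, is a subunit of Polycomb repressive complex 1 (PRC1), which marks histone H2A with ubiquitin and compacts chromatin at CpG-rich promoters of silent genes. Most open chromatin lies in short gaps in the nucleosome array, at a promoter or at an enhancer. Long open stretches are known from promoters of strongly transcribed CpG-island genes, from divergent promoters whose start sites face away from each other, and from clusters of enhancers.

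The promoter windows below come from named members, and they show how rich in CpG these promoters are. A window can extend beyond its peak, as in H1f2 and Rbmx, and the sequence of the peaks themselves was not read. Each runs from 250 bases before to 50 bases after a RefSeq start that lies inside the wide peak (GRCm38.p6, the same build as mm10), is printed 5′ to 3′ on the strand of the gene, and has every CpG in capitals. Ube2d3 (chr3:135437982-135438281, plus strand) is the widest member, and H1f2 (chr13:23738557-23738856, plus strand), listed as Hist1h1c in the table, is the third widest. Slc25a3 (chr10:91123918-91124217, minus strand) and Gpbp1 (chr13:111490078-111490377, minus strand) are among the wide promoter peaks with the smallest p in the lower direction, and Rbmx (chrX:57392987-57393286, minus strand) is among those with the smallest p in the higher direction. The peak of Rbmx was not below 0.05 even unadjusted (edgeR unadjusted p = 0.143, adjusted p = 0.712). Arrdc3 (chr13:80885845-80886144, plus strand) and the uncharacterized Gm2885 (chr17:6827967-6828266, minus strand) are starts inside other wide peaks, and the peak that holds Gm2885 has Ezr as its listed gene.

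Ube2d3: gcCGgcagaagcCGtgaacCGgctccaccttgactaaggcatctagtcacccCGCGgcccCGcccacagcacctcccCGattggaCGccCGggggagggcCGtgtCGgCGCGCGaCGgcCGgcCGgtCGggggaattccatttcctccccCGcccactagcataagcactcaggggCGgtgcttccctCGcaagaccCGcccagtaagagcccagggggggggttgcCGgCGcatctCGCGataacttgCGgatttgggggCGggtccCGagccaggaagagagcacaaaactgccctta
H1f2: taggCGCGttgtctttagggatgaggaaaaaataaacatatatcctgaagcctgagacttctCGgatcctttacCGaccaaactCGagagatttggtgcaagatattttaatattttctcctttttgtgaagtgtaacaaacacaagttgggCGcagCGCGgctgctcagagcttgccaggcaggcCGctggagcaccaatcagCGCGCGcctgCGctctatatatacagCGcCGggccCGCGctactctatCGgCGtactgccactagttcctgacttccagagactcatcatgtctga
Slc25a3: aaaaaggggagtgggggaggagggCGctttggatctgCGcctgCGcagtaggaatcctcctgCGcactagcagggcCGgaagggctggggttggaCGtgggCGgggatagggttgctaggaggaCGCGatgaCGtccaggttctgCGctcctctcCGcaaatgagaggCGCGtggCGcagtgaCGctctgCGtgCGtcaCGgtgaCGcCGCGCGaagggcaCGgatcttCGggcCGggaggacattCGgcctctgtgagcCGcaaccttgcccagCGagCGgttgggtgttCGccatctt
Gpbp1: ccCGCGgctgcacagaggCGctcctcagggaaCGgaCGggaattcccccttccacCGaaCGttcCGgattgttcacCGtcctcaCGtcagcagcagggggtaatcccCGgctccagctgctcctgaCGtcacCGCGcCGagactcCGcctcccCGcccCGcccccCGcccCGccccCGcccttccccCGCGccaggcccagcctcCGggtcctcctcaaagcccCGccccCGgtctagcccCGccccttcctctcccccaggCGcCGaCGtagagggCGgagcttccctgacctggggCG
Rbmx: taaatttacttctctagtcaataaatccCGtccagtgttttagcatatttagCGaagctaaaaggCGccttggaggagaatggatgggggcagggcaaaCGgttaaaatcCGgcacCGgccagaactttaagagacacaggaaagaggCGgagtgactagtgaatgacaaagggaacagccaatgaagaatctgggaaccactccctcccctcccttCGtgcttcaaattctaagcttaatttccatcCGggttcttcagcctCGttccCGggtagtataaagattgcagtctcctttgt
Arrdc3: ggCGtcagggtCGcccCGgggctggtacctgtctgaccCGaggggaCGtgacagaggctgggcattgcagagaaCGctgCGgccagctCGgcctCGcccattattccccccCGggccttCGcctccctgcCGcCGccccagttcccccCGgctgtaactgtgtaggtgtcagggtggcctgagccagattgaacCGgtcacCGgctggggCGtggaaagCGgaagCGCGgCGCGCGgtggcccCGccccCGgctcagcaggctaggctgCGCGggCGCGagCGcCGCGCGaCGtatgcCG
Gm2885: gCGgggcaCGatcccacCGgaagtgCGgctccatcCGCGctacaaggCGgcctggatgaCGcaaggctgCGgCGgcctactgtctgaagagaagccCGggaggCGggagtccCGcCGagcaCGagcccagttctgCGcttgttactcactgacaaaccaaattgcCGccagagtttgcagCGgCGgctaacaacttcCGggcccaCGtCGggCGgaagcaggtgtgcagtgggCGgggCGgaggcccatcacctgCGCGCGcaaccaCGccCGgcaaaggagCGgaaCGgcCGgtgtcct

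These windows held 29 CpG in Ube2d3, 19 in H1f2, 31 in Slc25a3, 32 in Gpbp1, 11 in Rbmx, 35 in Arrdc3 and 33 in Gm2885. The GC box GGGCGG, the core sequence bound by Sp1, was present on either strand in 5 of the 7 windows and absent from those of H1f2 and Rbmx.

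Wide promoter peaks lay on promoters that were richer in CpG than those of narrower peaks. RefSeq promoter windows of 300 bases could be placed at 504 starts inside wide promoter peaks, with a median of 28 CpG and a GC content of 66.7%. The 9262 starts inside narrower promoter peaks had a median of 22 CpG and 61.7% GC, and the 17732 starts in no peak had 4 CpG and 48.3% GC. Width and level go together, so the narrower promoter peaks of the strongest level decile (the tenth of all peaks with the highest mean log2 CPM) are the nearer comparison, and their 5942 starts had a median of 24 CpG and 62.3% GC. At least 10 CpG were found in 97.2% of the windows in wide promoter peaks, in 94.9% of those in the narrower peaks of the strongest decile and in 43.3% of all 27025 windows. The table of promoters holds none on chromosome 18 and matched the listed gene of 388 of the 484 wide promoter peaks. These are properties of the regions chosen, given with no test.

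The GC box was found more often in wide promoter peaks than in narrower ones. It was present in 82.3% of windows in wide promoter peaks, in 73.5% of those in the narrower peaks of the strongest decile and in 35.6% of all windows. The motif CCGGAAG, read by ETS factors, was present in 19.8% of windows in wide promoter peaks, in 24.0% in the narrower peaks of the strongest decile and in 9.08% of all windows. The CCAAT box was present in 39.1%, 44.8% and 37.8% of the same sets of windows. TATAAA, the core of the TATA box, was in 6.55% of windows in wide promoter peaks, in 5.22% in the narrower strongest peaks and in 14.1% of all windows. The motif AGATAA, read by Gata1 and Gata2, was in 2.78%, 4.54% and 11.4% of the same sets. Both strands were searched in each case, and a match is a stretch of letters, not a bound site.

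Starts on both strands were counted in each promoter peak, without regard to whether they face away from each other, and a longer interval can hold more starts by its length alone. A RefSeq start lay inside 402 of the 484 wide promoter peaks (83.1%), and starts on both strands lay inside 99 of them, which is 24.6% of those with a start. Of the 484, 473 lie on chromosomes with promoter windows, and the rest could not be checked for a start. Starts on both strands were found in 16.1% of the narrower promoter peaks of the strongest decile that held a start. By width, the share was 1.97% in promoter peaks under 200 bp, 8.56% from 200 bp, 15.3% from 400 bp, 18.1% from 600 bp, 25.5% from 800 bp and 21.4% from 1000 bp upward. Examples are Hnrnpa2b1 with Cbx3, which encode an RNA-binding protein and a heterochromatin protein, and Jun with its antisense gene Junos.

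**Figure D1:**
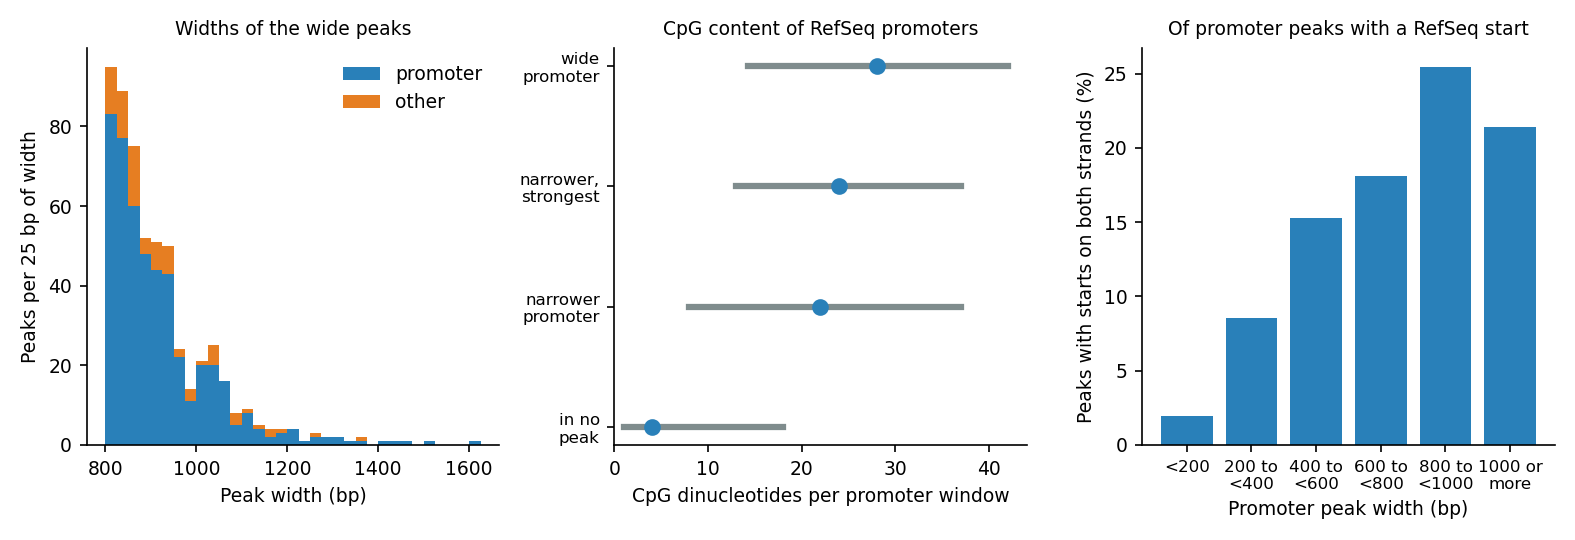
Left, number of wide peaks per 25 bp of width, promoter and other peaks stacked. Middle, CpG per 300-base RefSeq promoter window, with the median as a point and the range from the 10th to the 90th percentile as a bar, for starts in wide promoter peaks (median 28), in narrower promoter peaks of the strongest level decile (24), in all narrower promoter peaks (22) and in no peak (4). Right, percentage of promoter peaks with RefSeq starts on both strands among those with a start, by peak width, from 1.97% under 200 bp to 25.5% at 800 bp to under 1000 bp.

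Widths ran from 800 to 1603 bp with a median of 884 bp, against a median of 197 bp over all peaks. The members just inside the limit, by width and then by table order, were Capn7 and Xk at 800 bp, with log2 fold changes (knockout over wildtype) of -0.27 and -0.32, and Ptp4a1 at 801 bp, 1 of 9 peaks of that width, with -0.42. Just outside it, 3 of the 7 peaks of 799 bp were those of Ap5m1, Eef2k and a distal peak of Itga4, with -0.19, -0.24 and -0.04. Levels are in CPM, the reads in a peak scaled by the library's total of peak reads and its TMM factor. The median level was 82.2 CPM in wide promoter peaks and 49.9 CPM in other wide peaks, against 8.78 CPM in narrower promoter peaks and 3.16 CPM in narrower other peaks. The strongest level decile held 480 of the 484 wide promoter peaks and 74 of the 78 others. Per length, wide promoter peaks had a median of 90.7 CPM per kb and narrower promoter peaks of the strongest decile 99.0 CPM per kb. Other wide peaks had 55.8 CPM per kb, against 70.5 CPM per kb in narrower other peaks of the strongest decile. These levels follow from the calling of peaks in the same libraries and are a description.

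The 5 widest promoter members were Ube2d3, a ubiquitin-conjugating enzyme, at 1603 bp, the Gt(ROSA)26Sor locus, known for its open chromatin in most mouse tissues, at 1517 bp, the linker histone gene Hist1h1c at 1452 bp, Tusc1 at 1430 bp and the peak shared by Mir5130 and Kctd12 at 1424 bp. Per length the highest were Dnpep, an aspartyl aminopeptidase, at 401 CPM per kb, and Hdgfrp2, Khsrp, Sp1 and Opn3, at 311 to 393 CPM per kb. The lowest promoter members were Ube2q2, Ispd and Enpp1, at 15.0 to 21.1 CPM per kb. The 562 wide peaks belonged to 558 of 19020 genes with a peak (2.94%), and 4 genes carried a pair of wide peaks (Atp10a, Cd47, H3f3a and Plk2), none of them more.

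The libraries held 14487908 to 16709921 peak reads from knockout mice and 12000808 to 13769335 from wildtype mice, and a wide peak had a median of 1110 to 1260 reads in knockout libraries and 976.5 to 1206 in wildtype libraries. Wildtype library 3 stood somewhat apart, with a mean Spearman correlation over wide peaks of 0.964 with its own group, against 0.974 to 0.989 for the other 5 libraries. Wildtype libraries 2 and 3 correlated more closely with the knockout libraries (0.984 and 0.966) than with their own group (0.974 and 0.964). Wildtype library 1 and the knockout libraries were nearer to their own group. Markers of blood stem and progenitor cells had promoter peaks for 7 of 7 genes, with a summed level of 137.5 CPM in knockout and 144.7 CPM in wildtype mice. The B cell markers with a promoter peak summed to 4.56 CPM in knockout and 8.65 CPM in wildtype mice. T and NK cell markers had promoter peaks for 2 of 4 genes (4.62 and 5.92 CPM summed in knockout and wildtype mice), erythroid markers for 3 of 3 (21.3 and 25.8 CPM) and granulocyte-monocyte markers for 4 of 4 (26.9 and 20.6 CPM). Of 3 markers of stroma and endothelium, 1 had a promoter peak, Col1a1, with 6.26 CPM in knockout and 5.83 CPM in wildtype mice. Cd3e, Ncr1, Cdh5 and Lepr had no promoter peak in the table. None of the 24 markers had a wide peak, and the part of cell makeup in the results was not tested. In such bulk samples, fewer cells of a type and less accessibility per cell cannot be told apart. The peak nearest to the start of Pcgf2 (chr11:97702450-97702803) lies outside the gene's RefSeq span and does not check the deletion.

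The study asked whether loss of Mel18 alters chromatin accessibility. With 1 scaling factor per library (TMM), 460 of 484 wide promoter peaks (95.0%) had less accessibility in Mel18 knockout mice. Of all peaks, 48.2% did. The wide promoter peaks had a median log2 fold change of -0.23, while a scaling that follows the level gave a median of 0.04. No single wide peak passed the adjusted threshold of 0.05 in edgeR's quasi-likelihood test over all peaks, and the smallest adjusted p was 0.0578. No peak of the whole table passed it either (0.0% higher and 0.0% lower), while DESeq2's Wald test called 2 higher and 1 lower of all peaks (0.00182% and 0.00091%) and 0 of the wide ones. Other tools and scalings did call wide promoter peaks: limma-voom called 40, all lower, against 0.00091% higher and 0.253% lower of all peaks, and edgeR with the size factors of DESeq2 called 52, all lower, against 0.00182% higher and 0.424% lower of all peaks. At an unadjusted p below 0.05, 297 wide promoter peaks (61.4%) were lower and 2 were higher, against 5.97% lower and 3.1% higher over all peaks. All 3 knockout libraries lay below all 3 wildtype libraries in 279 wide promoter peaks and above them in 4, against 8.01% and 7.63% of all peaks. Over all peaks the median was 0.02. The authors' deposited table gives 0 wide peaks, and 3 of all peaks, an adjusted p under 0.05.

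Under TMM, narrower promoter peaks of the strongest decile had values close to those of the wide ones. Their median log2 fold change was -0.25, with 49.4% lower at an unadjusted p below 0.05. Below 0 were 93.3% of them, against 95.0% of the wide ones. All knockout libraries lay below all wildtype libraries in 54.8% of them, against 57.6% of the wide ones. The mean log2 CPM of wide minus that of narrower promoter peaks in that decile was 0.88 ± 0.0136 in knockout and 0.873 ± 0.0101 in wildtype mice (SD, n = 3 each). This difference of 0.0066 did not exceed the spread between libraries (exact two-sided permutation p = 0.5, where the smallest possible is 0.1). The same difference was 0.0825 under a trended normalization, described next, with no overlap between the groups (exact permutation p = 0.1, the smallest possible).

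The share of reads differed in the same direction. Wide promoter peaks took 4.633%, 4.613% and 4.612% of peak reads in the knockout libraries, against 4.996%, 4.942% and 5.115% in the wildtype libraries. The groups did not overlap, and the difference of -0.398 percentage points had an exact permutation p of 0.1, the smallest that 3 against 3 libraries can give. Promoter peaks as a whole took 50.2% ± 0.285 of peak reads in knockout and 53.9% ± 1.7 in wildtype mice (SD, n = 3 each). Within the promoter reads the wide peaks took 9.21% ± 0.0512 in knockout and 9.31% ± 0.129 in wildtype mice, and here the groups overlapped (exact permutation p = 0.3).

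**Figure D2:**
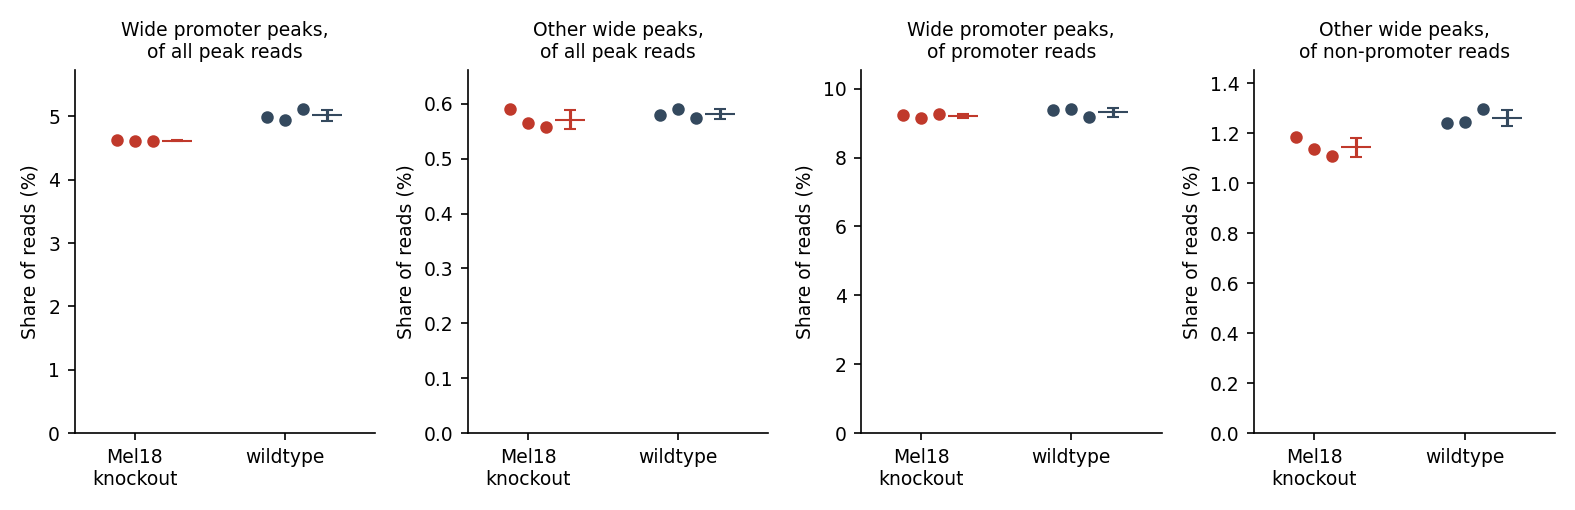
Share of reads in wide promoter peaks and in other wide peaks, as a percentage of all peak reads (left pair) and of the promoter or non-promoter peak reads (right pair), in Mel18 knockout and wildtype libraries. Points are libraries and the bar is mean ± SD (n = 3 each). Wide promoter peaks took 4.62% ± 0.0123 in knockout and 5.02% ± 0.0885 in wildtype libraries without overlap, while their share of promoter reads overlapped.

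The direction of the wide promoter peaks depended on the scaling. A trended normalization, in which each library is scaled along the mean level by a loess curve, was run as an alternative. Under it the median log2 fold change of wide promoter peaks was 0.04, with 62 higher and 7 lower at an unadjusted p below 0.05, against 2.26% higher and 3.37% lower over all peaks. The narrower promoter peaks of the strongest decile had a median of -0.04 under the same scaling, with 204 higher and 349 lower. These counts are of 7099 peaks, while those of wide promoter peaks are of 484. By width, the median log2 fold change of promoter peaks under TMM was -0.01 below 200 bp, -0.14 from 200 bp, -0.24 from 400 bp, -0.25 from 600 bp, -0.24 from 800 bp and -0.21 from 1000 bp. Under the trended normalization it was -0.10, -0.08, -0.06, -0.01, 0.03 and 0.09 over the same bins. The cause of the difference between the scalings was not tested.

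Leaving out wildtype library 3 changed the number of calls. Without it, edgeR's test called 3 wide promoter peaks higher and 136 lower at an adjusted p under 0.05, against 0.29% higher and 2.45% lower of all peaks. The median of the wide promoter peaks was then -0.20 on the log2 scale. Without wildtype library 2 it called 61 wide promoter peaks and 2 other wide peaks, all lower, against 0.00091% higher and 0.485% lower of all peaks. Without any single one of the remaining 4 libraries it called none. With the trended normalization and without wildtype library 3, a combination chosen after seeing the data, 5 were called higher and 0 lower, against 0.0401% and 0.0664% of all peaks. The 5 were Alyref2, Rdm1, Hist1h1c, Hist4h4 and Ripk2.

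**Figure D3:**
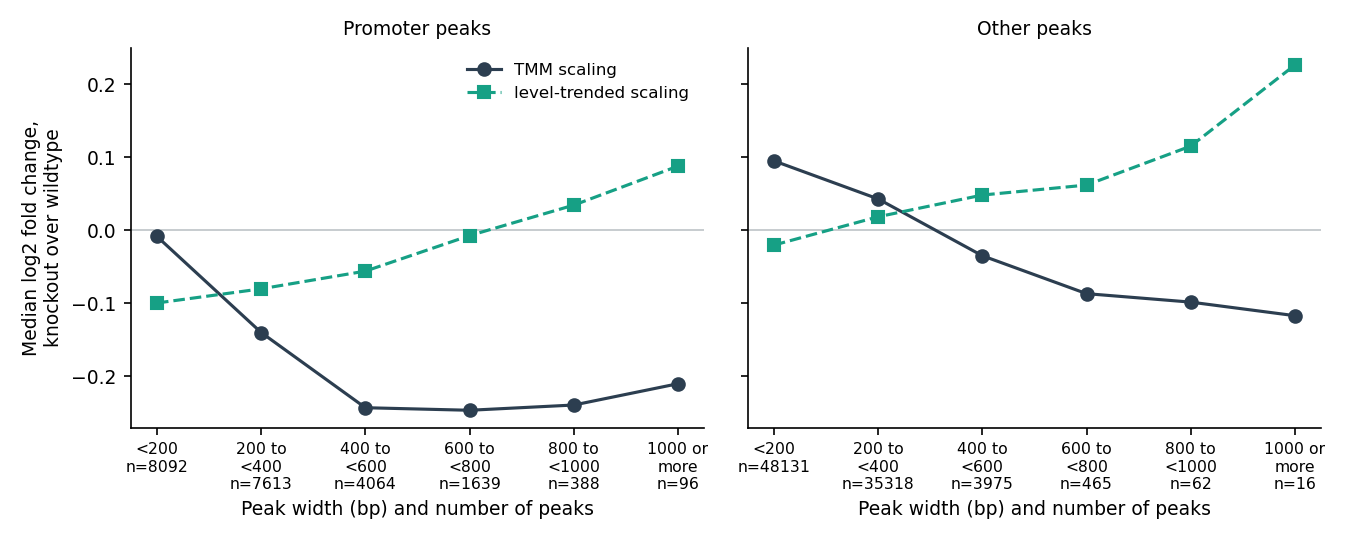
Median log2 fold change, Mel18 knockout over wildtype, of promoter peaks (left) and other peaks (right) by peak width, with TMM scaling (solid line) and with the level-trended scaling (dashed line). The number of peaks in each bin is under its label, and the last bin of other peaks holds 16. In promoter peaks from 800 bp to under 1000 bp the median was -0.24 with TMM and 0.03 with the trended scaling.

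The 5 wide promoter peaks with the smallest p in the lower direction were those of Slc25a3, Pabpc1, Dnpep, Gpbp1 and Mon1b. Slc25a3, the mitochondrial phosphate carrier, had 126, 123 and 123 CPM in knockout libraries, against 176, 166 and 176 CPM in wildtype libraries. Its groups did not overlap, and its log2 fold change was -0.48 ± 0.06 (SE; edgeR adjusted p = 0.0578). Pabpc1, the cytoplasmic poly(A)-binding protein, had 124, 123 and 120 CPM in knockout libraries, against 180, 166 and 159 CPM in wildtype libraries. The log2 fold change was -0.46 ± 0.07 (edgeR adjusted p = 0.0582), again without overlap. Dnpep had 299, 286 and 276 CPM in knockout libraries and 409, 377 and 346 CPM in wildtype libraries, a log2 fold change of -0.39 ± 0.06 (edgeR adjusted p = 0.0606). Gpbp1, a transcription factor that binds GC-rich promoters, had 180 ± 5.42 CPM in knockout and 234 ± 13.8 CPM in wildtype mice (SD, n = 3 each). Mon1b, part of a complex that activates Rab7 on endosomes, had 252 ± 6.63 CPM in knockout and 312 ± 10.2 CPM in wildtype mice. None of these 5 passed the adjusted threshold. Under the trended normalization the log2 fold changes of Slc25a3 and Pabpc1 were -0.14 and -0.12, and those of Dnpep, Gpbp1 and Mon1b were 0.03, 0.01 and 0.11.

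Among the widest members, Ube2d3 had 271, 251 and 258 CPM in knockout libraries, against 326, 311 and 306 CPM in wildtype libraries, with no overlap and a log2 fold change of -0.27 ± 0.05 (edgeR adjusted p = 0.0645). Gt(ROSA)26Sor had 230, 217 and 206 CPM in knockout libraries and 286, 273 and 264 CPM in wildtype libraries, also without overlap, at -0.33 ± 0.06 (edgeR adjusted p = 0.0606). The trended normalization gave 0.14 in Ube2d3 and 0.06 in Gt(ROSA)26Sor. Hist1h1c had 133, 136 and 119 CPM in knockout libraries and 99.5, 116 and 136 CPM in wildtype libraries. Its groups overlapped through wildtype library 3, and the log2 fold change of 0.15 ± 0.10 did not pass (edgeR adjusted p = 0.75).

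Of the 5 wide peaks higher in knockout mice at an unadjusted p below 0.05, 3 overlapped a RefSeq gene of the small nuclear RNA (snRNA) class, among them both promoter peaks of the 5. Most snRNAs are RNA parts of the spliceosome, and the RefSeq class also holds others, such as U3 and U7. The peak listed under Alyref2 overlaps LOC115487699, and it had 59.0, 54.0 and 56.5 CPM in knockout libraries, against 32.5, 39.7 and 44.9 CPM in wildtype libraries. The groups did not overlap, and the log2 fold change was 0.53 ± 0.12 (edgeR adjusted p = 0.119). The peak listed under Rdm1 overlaps LOC115487916, and it had 67.9, 58.6 and 53.6 CPM in knockout libraries, against 31.4, 42.3 and 52.0 CPM in wildtype libraries. Its log2 fold change was 0.52 ± 0.17 (edgeR adjusted p = 0.328), with a narrow gap between the groups. The peaks listed under Rdm1 (chr11:101627041-101628298) and Arl4d (chr11:101658194-101659074) are near each other, with a narrower peak over an snRNA gene between them. That of Arl4d covers Rnu2-10, a gene of the U2 snRNA. It had 62.1, 54.4 and 42.8 CPM in knockout libraries and 35.1, 39.0 and 44.6 CPM in wildtype libraries, so that the groups overlapped, with a log2 fold change of 0.42 ± 0.14 (edgeR adjusted p = 0.339).

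Peaks over snRNA genes as a class were looked up after these values had been seen, so their counts are given with no test. Of 36 peaks in the whole table that overlapped an snRNA gene, 33 had a log2 fold change above 0, and their median was 0.42. At an unadjusted p below 0.05, 19 of the 36 were higher and none was lower, against 3.1% and 5.97% of all peaks. Under the trended normalization the median was 0.52, with 24 higher and 0 lower, against 2.26% and 3.37% of all peaks. Of the 36, 7 were wide (19.4%, against 0.512% of all peaks). Trappc6b, Pecr, Sirt4 and Mreg are the listed genes of the remaining 4 wide ones. Their log2 fold changes were 0.55 ± 0.28, 0.20 ± 0.10, -0.02 ± 0.10 and -0.11 ± 0.08 (SE), and all 4 had overlapping groups. No peak over an snRNA gene passed the adjusted threshold with all libraries. Without wildtype library 3, edgeR called 12 of the 36 higher and 0 lower, against 0.29% and 2.45% of all peaks. The 36 include a peak over Rnu7 and peaks over Rnu3a and Rnu3b1 to Rnu3b4, genes of the nucleolar U3 RNA. These U3 peaks are among the 19 that were higher. snRNA genes occur in near-identical copies, and the sources used here do not give how reads that match several copies were placed, so the split between copies is uncertain.

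**Figure D4:**
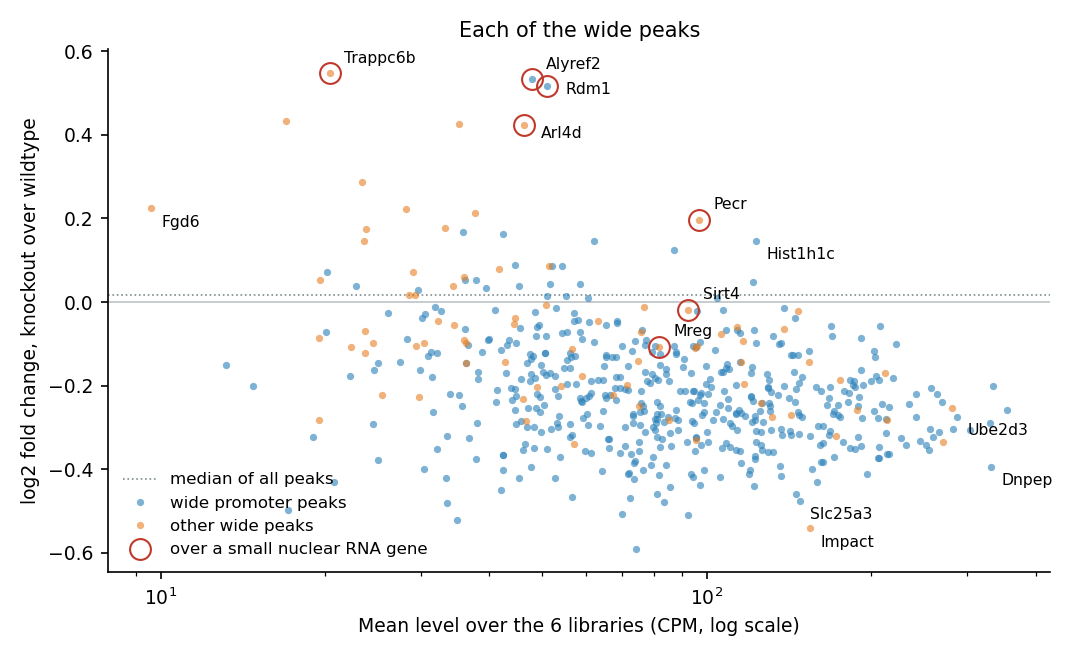
Log2 fold change, Mel18 knockout over wildtype, of each of the 562 wide peaks against its mean level over the 6 libraries in CPM (log axis). Blue points are wide promoter peaks, orange points other wide peaks, red rings mark the 7 that overlap an snRNA gene, and the dotted line is the median of all peaks (0.02). With this TMM scaling most wide promoter peaks lie below 0, while Alyref2, Rdm1, Arl4d and Trappc6b lie between 0.42 and 0.55.

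The 78 other wide peaks were mixed in kind. By the table's annotation, 47 lay in neither an exon nor an intron, 22 in an intron only and 9 touched an exon, at a median of 18840 bp from the listed start. A RefSeq start lay inside 13 of them, so part of this class holds promoters that the table's annotation does not list. The peak of Arrdc3, an arrestin-like adaptor, lies 2469 bp from the listed start but holds Arrdc3's own RefSeq start, and the peaks whose listed genes are Ezr and Wnt7b hold the starts of Gm2885 and D130051D11Rik. The 14 promoter windows in these peaks had a median of 31 CpG, and their 13 peaks had a median of 95.4 CPM. The 65 in which no start was found had 44.6 CPM. Of these 65, 63 lie on chromosomes with promoter windows, and the rest, on chromosome 18, could not be checked.

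Some distal members lie near known regulators of blood cells. The peak listed under Mir6376 (chr6:88116433-88117317) lies at -77016 bp, upstream of the RefSeq start of Gata2, the transcription factor of blood stem cells, where a distal Gata2 enhancer is known. It had 26.3, 23.0 and 18.7 CPM in knockout libraries and 22.0, 26.6 and 25.5 CPM in wildtype libraries, which overlapped. The peak listed under Pdzk1ip1 (chr4:115095574-115096499) is 38225 bp downstream of the start of Tal1, another blood stem cell factor. It had 45.3, 29.9 and 26.1 CPM in knockout libraries and 20.7, 30.3 and 54.1 CPM in wildtype libraries, which also overlapped. Both pairings were chosen after the values had been seen, and proximity does not assign a peak to a gene. Cxcr4, the receptor that holds stem cells in the marrow, had a wide peak at -22819 bp from its start, with 53.05 ± 1.63 CPM in knockout and 49.95 ± 6.72 CPM in wildtype mice (SD, n = 3 each). Fos had a wide peak at -18558 bp from its start, with 113 ± 6.01 CPM in knockout and 120 ± 5.16 CPM in wildtype mice.

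Other wide peaks leaned lower under TMM, less than the promoter ones. Their median log2 fold change was -0.10, with 58 of 78 below 0 (74.4%), and none passed the adjusted threshold. At an unadjusted p below 0.05, 21 were lower (26.9%) and 3 higher (3.85%), against 5.97% and 3.1% of all peaks. Narrower other peaks of the strongest decile had a median of -0.12, with 73.4% below 0, 13.1% lower and 0.54% higher. All knockout libraries lay below all wildtype libraries in 16 other wide peaks and above them in 2, against 8.01% and 7.63% of all peaks. Under the trended normalization the median of other wide peaks was 0.14, with 16 higher and 1 lower, against 2.26% and 3.37% of all peaks. Their share of peak reads was 0.571% ± 0.0172 in knockout and 0.581% ± 0.00854 in wildtype mice (SD, n = 3 each), with overlapping groups (exact permutation p = 0.4). Their share of the non-promoter reads was 1.15% ± 0.0376 in knockout and 1.26% ± 0.0315 in wildtype mice, without overlap (exact permutation p = 0.1, the smallest possible). Against narrower other peaks of the strongest decile, they were higher by 0.997 ± 0.072 in knockout and 0.978 ± 0.201 in wildtype mice on the log2 CPM scale, a difference within the spread (exact permutation p = 0.9). Without wildtype library 3, edgeR's test called 1 other wide peak higher and 12 lower, against 0.29% and 2.45% of all peaks. With the trended normalization in addition it called 2 higher and 0 lower, against 0.0401% and 0.0664% of all peaks.

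The smallest p among other wide peaks belonged to an intronic peak of Impact, an imprinted gene that regulates translation under stress. It had 134, 124 and 119 CPM in knockout libraries, against 197, 186 and 167 CPM in wildtype libraries, with no overlap and a log2 fold change of -0.54 ± 0.07 (edgeR adjusted p = 0.0578). The authors' deposited table gives it a log2 fold change of -0.54 and the smallest adjusted p of the wide peaks, 0.2003. Arrdc3 had 191, 188 and 200 CPM in knockout libraries, against 242, 232 and 230 CPM in wildtype libraries, at -0.28 ± 0.05 (edgeR adjusted p = 0.0668). The peak listed under Ezr had 84.5, 86.1 and 83.1 CPM in knockout libraries and 107, 103 and 108 CPM in wildtype libraries, at -0.33 ± 0.07 (edgeR adjusted p = 0.0917). Neither peak had overlapping groups. The widest other peak, in Crlf2, a cytokine receptor subunit, had 255, 262 and 254 CPM in knockout libraries and 348, 325 and 246 CPM in wildtype libraries. Its groups overlapped through wildtype library 3, and its edgeR adjusted p was 0.499 with all libraries. It was 0.000772 without that library, but 0.626 without wildtype library 1 and 0.428 without wildtype library 2. In the higher direction, Ffar2, a receptor for short-chain fatty acids, had 40.3 ± 4.34 CPM in knockout and 30.1 ± 6.8 CPM in wildtype mice (SD, n = 3 each), and an intronic peak of Kctd1 had 19.5 ± 1.47 and 14.5 ± 1.48 CPM in knockout and wildtype mice. Neither passed the adjusted threshold.

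**Figure D5:**
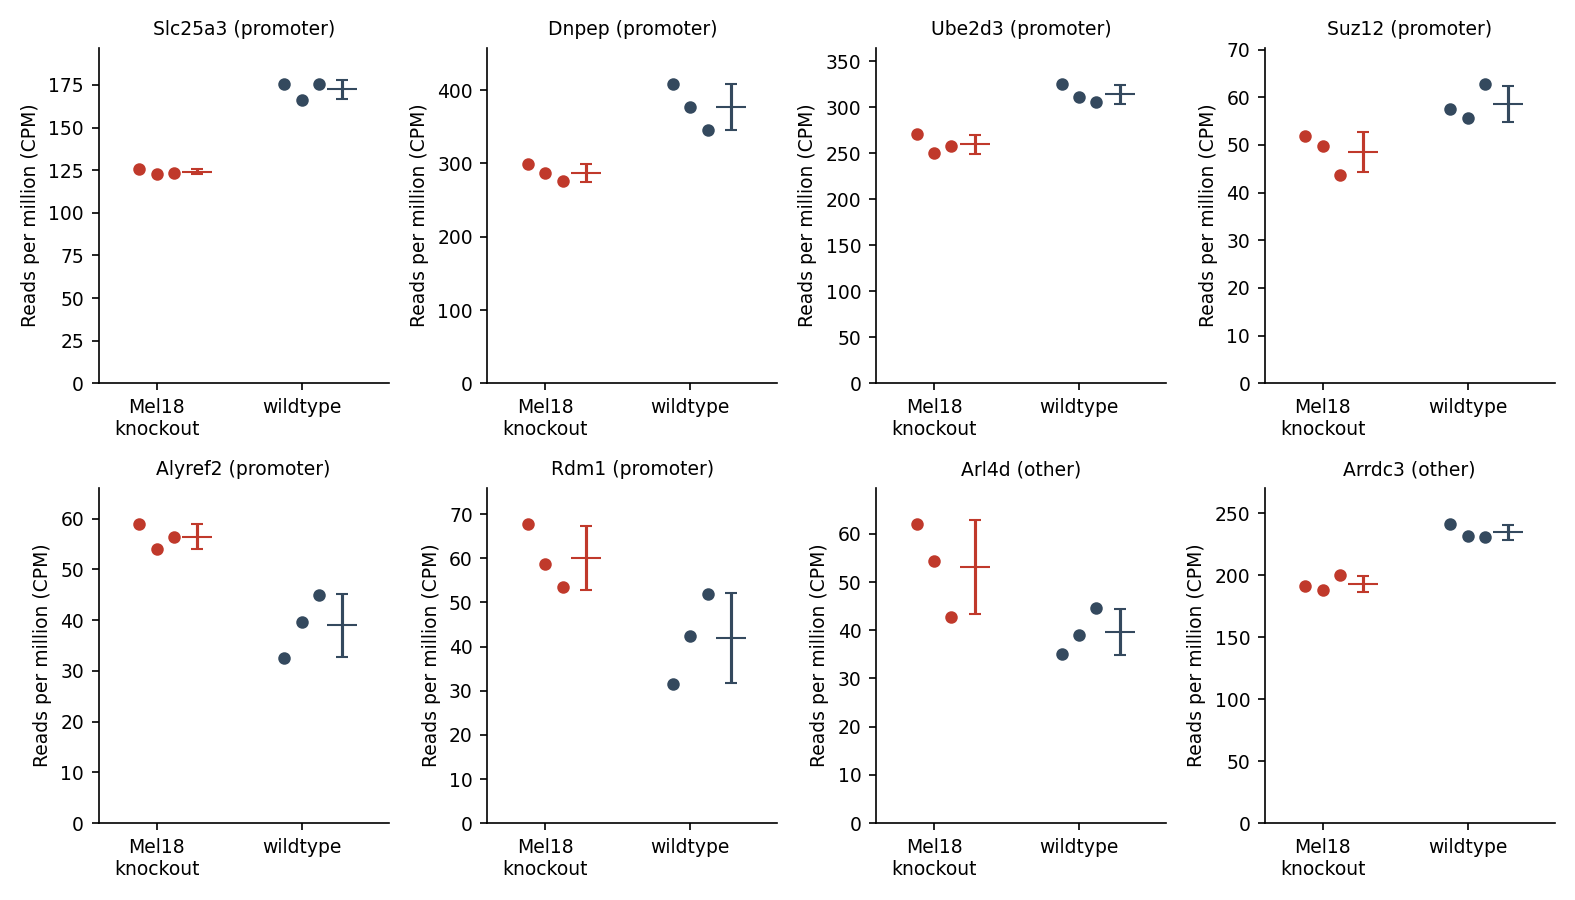
Level in CPM in each library of 8 named wide peaks, with Mel18 knockout left and wildtype right in each panel, points for libraries and mean ± SD beside them (n = 3 each). Slc25a3, Dnpep, Ube2d3, Suz12 and Arrdc3 lie lower in knockout libraries without overlap, Alyref2 and Rdm1 lie higher without overlap, and the groups of Arl4d overlap.

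Wide peaks were looked up in gene lists of blood cell identity and in the other lists named here and below. The background for every list is the share of all genes with a peak that carry a wide one (2.94%). It takes no account of how many peaks a gene carries, which differed between the lists. Counted by peak, 1 of 391 was wide in the stem cell transcription factors and 5 of 650 in the AP-1 and immediate early genes. In the splicing factors it was 6 of 231, against 0.512% of all peaks. Among 20 stem cell transcription factors with a peak, 1 had a wide one (Etv6), among 19 genes of stem cell surface and homing 3 had one (Cd47, Cxcr4 and Itga4), and among 21 myeloid genes 1 had one (Cebpd), with no test of these shares. No wide peak was found in the lists of erythroid and megakaryocyte, B cell, T and NK cell, macrophage and other myeloid, stromal, Hox, cell cycle and interferon genes. Etv6, needed for stem cells in adult marrow, had 58.9, 58.6 and 60.8 CPM in knockout libraries and 58.5, 57.3 and 57.3 CPM in wildtype libraries, a log2 fold change of 0.04 ± 0.08. Cebpd, a myeloid transcription factor, had 56.0, 55.0 and 55.3 CPM in knockout libraries and 64.9, 60.7 and 39.1 CPM in wildtype libraries. Cd47, the signal that protects cells from phagocytosis, had a promoter peak with 104 ± 6.84 CPM in knockout and 115 ± 3.69 CPM in wildtype mice (SD, n = 3 each), and a distal peak with 71.3 ± 9.46 and 78.6 ± 6.3 CPM in knockout and wildtype mice. None of these passed at an unadjusted p below 0.05.

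Of 35 Polycomb subunit genes with a peak, 3 had a wide promoter peak, and all 3 were lower at an unadjusted p below 0.05 and none at the adjusted threshold, read against 61.4% of wide promoter peaks. Aebp2, a cofactor of PRC2, the complex that methylates histone H3, had 59.3, 60.8 and 77.6 CPM in knockout libraries and 98.8, 74.4 and 87.7 CPM in wildtype libraries. Its groups overlapped, at a log2 fold change of -0.40 ± 0.13 (edgeR adjusted p = 0.309). Suz12, a core subunit of PRC2, had 52.0, 49.9 and 43.8 CPM in knockout libraries and 57.5, 55.6 and 62.9 CPM in wildtype libraries, without overlap, at -0.27 ± 0.10 (edgeR adjusted p = 0.412). Rbbp7, a histone-binding subunit, had 74.3 ± 0.795 CPM in knockout and 87.7 ± 6.46 CPM in wildtype mice (SD, n = 3 each). Under the trended normalization their log2 fold changes were -0.14, -0.06 and 0.03, in the order Aebp2, Suz12 and Rbbp7.

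Of 39 AP-1 and immediate early genes, which respond within minutes to signals and to handling of cells, 5 had a wide peak (Dusp1, Fos, Jun, Jund and Klf2), 3 of them lower and 0 higher at an unadjusted p below 0.05, against 56.6% lower of all wide peaks. The median of the 5 was -0.17 with TMM and 0.21 with the trended normalization. Jun had 176, 171 and 175 CPM in knockout libraries, against 205, 201 and 195 CPM in wildtype libraries, at a log2 fold change of -0.20 ± 0.05 (edgeR adjusted p = 0.187). Dusp1, a phosphatase of MAP kinases, had 89.7 ± 4.85 CPM in knockout and 108 ± 9.57 CPM in wildtype mice, and Jund 199 ± 11.2 and 224 ± 10.1 CPM in knockout and wildtype mice (SD, n = 3 each). Of 44 splicing factor genes 6 had a wide promoter peak, 4 lower and 0 higher, against 61.4% lower of all wide promoter peaks, with a median of -0.20 with TMM and 0.12 with the trended normalization. Among them was Srsf5 with 120, 122 and 119 CPM in knockout libraries and 145, 144 and 127 CPM in wildtype libraries. Hnrnpa2b1 had 145, 138 and 130 CPM in knockout libraries and 150, 172 and 150 CPM in wildtype libraries. Of 78 ribosomal protein genes 2 had a wide peak (Rpl22l1 and Rps19), 1 of them lower. Of 44 replication-dependent histone genes 4 had a wide peak (Hist1h1c, Hist1h3e, Hist3h2a and Hist4h4), with 0 lower and 0 higher. Hist4h4 had 101, 84.8 and 86.5 CPM in knockout libraries and 64.8, 71.8 and 113 CPM in wildtype libraries. Its edgeR adjusted p was 0.899 with all libraries and 0.0095 without wildtype library 3, but 0.941 without wildtype library 1 and 0.994 without wildtype library 2. No member of these lists passed the adjusted threshold with all libraries.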

How the data were processed

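Lin- bone marrow cells of 3 Mel18 knockout and 3 wildtype mice, grouped by the genotype in the labels' titles, were profiled by ATAC-seq. Per the submitters' processing notes, the build was mm10, and MACS2 2.1.1, Bowtie2 1.2.2, Trimmomatic 0.40, Picard, MultiQC 0.11.5 and FastQC are named there with no role or order. The sources used here give neither the counting tool, nor a shift for the Tn5 cut, nor the treatment of duplicates, all of which can alter how many reads a peak holds.

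Per the file headers, the deposited table holds 109859 peaks with raw read counts in 6 libraries, the nearest start site and a comparison by the authors. These deposited counts are whole and not normalized. From the authors' comparison, the log2 fold change and the p-value adjusted by the authors were used only where the deposited table is named. Libraries are numbered within each genotype in the table but mice run through both genotypes in the labels, which ties a column to its genotype and to no single mouse. The mice are separate, so libraries are biological replicates. The table's other 12 per-library columns were left out. Its starts count from 0, those in the text from 1, and width is end minus start.

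The comparison used edgeR 4.0.16 in R 4.3.3 (quasi-likelihood test with TMM). filterByExpr left every peak in. P-values were adjusted over the whole table by the Benjamini-Hochberg method, with 0.05 as threshold. The SE of a log2 fold change is its absolute value over the square root of its F. Log2 CPM has a prior count of 2. Measures with 1 value per library were compared by exact two-sided permutation tests. Alternatives used limma 3.58.1, DESeq2 1.42.0, other scalings (loess span 0.3), other widths and promoter windows, and each library left out. The procedure was tested on simulated data. Named peaks are, for promoter and other peaks apart, the 5 widest, the 5 highest and 3 lowest per kb, the 5 with the smallest p in each direction, up to 4 widest of each gene list and those at the width limit. The members and lists were chosen with earlier results of these data known. Promoter sequences and gene classes are from RefSeq (GRCm38.p6). Precision is set by 3 mice per group, and the median number of reads per peak and library was 40 to 63 over all peaks. Of the cell type markers checked, 1 gene is not reported here.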

Additional observations from a re-analysis of the deposited data

How the results depend on the processing

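Counts and medians below are for wide promoter peaks and for other wide peaks, in that order. With the size factors of DESeq2, edgeR called 52 and 3, all lower (of all peaks, 2 higher and 466 lower), and limma-voom called 40 and 2, all lower (of all peaks, 1 higher and 278 lower), against 0 and 0 in the TMM fit and with DESeq2's Wald test. Without each library in turn, calls ranged from 0 to 139 and from 0 to 13, and without wildtype library 2 they were 61 and 2, all lower (of all peaks, 1 higher and 533 lower). Library sizes alone, which moved the median of all peaks from 0.02 to 0.14, gave medians of -0.11 and 0.023, with 133 and 6 lower and 6 and 6 higher at an unadjusted p below 0.05. Trended normalization reversed both medians, to 0.0437 and 0.14 (62 and 16 higher, 7 and 1 lower), and without wildtype library 3 in addition, a combination chosen after seeing the data, they were 0.0747 and 0.16 (106 and 29 higher, 4 and 2 lower, 5 and 2 called). DESeq2's Wald test gave 141 and 5 lower, and a mean of at least 30 reads gave 13 lower other peaks. At an unadjusted p below 0.05, shares over all peaks are given only for the TMM fit (5.97% lower, 3.1% higher) and the trended fit with all libraries (3.37% and 2.26%). Counts at that threshold from the other fits have no such background and show only how the counts move. A width of at least 700 bp took in 1047 and 187 peaks, with 603 and 46 lower and 4 and 5 higher. One of at least 1000 bp kept 96 and 16 peaks, with 53 and 7 lower and 1 and 1 higher. A promoter window of 500 bp gave 1 higher of 469 promoter peaks and 32 lower of 93 other peaks.

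Differences between genotypes that were near 0 changed sign: the excess of other wide over narrower peaks was -0.000555 at 700 bp, that of promoter peaks -0.000553 with a window of 3000 bp, and the share of reads in other wide peaks 0.000655 with that window. Over the fits that each leave out a library, these 3 differences ranged from -0.0562 to 0.129, from -0.000311 to 0.0141, and from -0.0201 to -0.00377. The share of reads in wide promoter peaks ranged from -0.436 to -0.3495, medians from -0.28 to -0.20 and from -0.15 to -0.08, lower counts from 223 to 311 and from 11 to 27, and higher counts from 1 to 5 and from 0 to 6.

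Of the 59 peaks that the naming rule gives, 33 had the opposite sign under trended normalization. Among the peaks whose fold change is printed, the log2 fold changes were then 0.14 in Ube2d3, 0.0634 in Gt(ROSA)26Sor, 0.0347 in Dnpep, 0.0056 in Gpbp1, 0.11 in Mon1b, 0.0285 in Rbbp7, 0.16 in Jun, 0.0285 in Dusp1, 0.16 and 0.11 in the promoter and distal peaks of Cd47, 0.14 in Hnrnpa2b1, 0.12 in Srsf5, 0.16 in Crlf2, 0.10 in Arrdc3, 0.072 in Zfp958, 0.26 in Sirt4, 0.16 in Mreg, 0.22 in Fos, 0.21 in Jund and 0.0838 in Pdzk1ip1. With library sizes alone, Sirt4 was at 0.10, Mreg at 0.0144, Fos at 0.03 and Pdzk1ip1 at 0.058, and with a mean of at least 30 reads Sirt4 was at 0.0137. Without each library in turn, the log2 fold change ranged from -0.0663 to 0.4136 in Hist4h4, from -0.0312 to 0.2021 in Cxcr4, from -0.1747 to 0.1242 in Cebpd, from -0.1376 to 0.0621 in Sirt4 and from -0.3622 to 0.4117 in Pdzk1ip1. The cause was not tested in any of these cases. Fits that leave out a library compare 3 with 2 mice, and shares of raw reads do not change with the scaling or the test. No paired analysis was possible because the labels number the mice across both genotypes, and nothing ties a number in the table's columns to a mouse or to the same number in the other genotype.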

Other observations

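Other classes of small RNA genes were looked up beside the snRNA genes, after their values had been seen, and are given with no test. The 174 peaks over tRNA genes had a median log2 fold change of 0.18. At an unadjusted p below 0.05, 19 were higher and 13 lower, against 3.1% higher and 5.97% lower of all peaks. Under trended normalization 18 were higher and 0 lower, against 2.26% and 3.37% of all peaks. Of the 174, 5 were wide. These 5, listed under B230208H11Rik, Wbp4, Trim55, Polg and Fbxo31, lay below 0 with TMM, as did 518 of the 562 wide peaks, with a median of -0.13, and had a median of 0.12 under trended normalization. The 56 peaks over snoRNA genes had a median of -0.12, and the wide one, at Snhg8, the host gene of Snora24, had 174 CPM in knockout and 211 CPM in wildtype mice.

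The 76 peaks over miRNA genes had a median of -0.14, with 1 higher and 14 lower, against 3.1% higher and 5.97% lower of all peaks. Under trended normalization their median was -0.0082, with 2 higher and 2 lower, against 2.26% and 3.37% of all peaks. Of the 76, 4 were wide.

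Of all promoter peaks, 484 of 21892 were wide. By chromosome, given with no test, the highest shares were 4.07% of the promoter peaks on chromosome 3 and 3.85% on chromosome 12, and the lowest were 1.19% on chromosome 8 and 1.49% on chromosome 2.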
